A study of Homo sapiens with 24 samples.

Results

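The genes described here are 131 late risers of dasatinib-treated renal carcinoma cells. Their signal had moved little from its control level at 6 h and lay clearly above it at 24 h in both lines studied. They were chosen from the measured values, out of 18132 genes with a probe set of their own. In each line the mean of the 3 arrays at 6 h lay less than 0.4 from the mean of the 3 DMSO arrays on the log2 scale. The mean at 24 h lay at least 0.8 above DMSO, which 8.24% of the genes tested in Caki-1 and 10.1% in 769-P did, and reached at least 7. A log2 difference of 1 is a doubling of signal.

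Both are established lines of human renal cell carcinoma, Caki-1 grown from a metastasis in the skin and 769-P from a tumour of the kidney itself. Cells received the vehicle DMSO or 1 µM dasatinib for 6, 12 or 24 h, and each of the 8 groups had 3 Affymetrix PrimeView arrays, which read mostly the 3' part of a transcript. Dasatinib blocks the kinases ABL and SRC and the relatives of SRC. The DMSO arrays carry no time, so the same 3 of a line were the control at every time, and hours of drug cannot be told apart from hours in culture. How the cultures behind biological replicates were kept apart is not in the labels, so p-values measure the spread between these samples, which may be technical.

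Among them are genes of the lysosome, of autophagy and of the cilium. Lysosomes hold acid hydrolases, and autophagy brings cytoplasm to them under the control of the nutrient sensor mTORC1, which sits on the lysosomal surface. The primary cilium, an antenna that tubule cells carry, is built when cells leave the cell cycle and taken down before they divide. Tubule epithelium is also known for brush border peptidases, transporters and a high capacity to oxidise fatty acids.

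Array medians lay between 6.008 and 6.084, and arrays of a group correlated at 0.9929 to 0.9975. The renal transcription factor PAX8 had means of 10.00 in Caki-1 and 9.79 in 769-P under DMSO, while LRP2 and CUBN, receptors that define the proximal tubule, were dim (5.07 to 6.12). The epithelial marker EPCAM was dim in Caki-1 (5.02) and bright in 769-P (8.51). PTPRC and LYZ of leukocytes were at 3.39 to 3.71, and CD3E was at 5.47 to 5.62. CD14, a further leukocyte marker, read 6.19 under DMSO and 5.21 at 24 h in Caki-1, and 3.97 and 3.98 in 769-P. The summed log2 level of the 4 ran from 18.67 to 18.88 under DMSO and from 17.54 to 18.33 at 24 h in Caki-1. In 769-P the sums were 16.64 to 16.69 and 16.10 to 17.66. Of 3 fibroblast markers, COL1A1 and DCN were brighter in Caki-1 at 24 h than under DMSO (7.69 against 6.64 and 6.91 against 4.98) and PDGFRB was not (6.26 against 6.34). The summed log2 level of these markers ran from 17.89 to 18.03 under DMSO and from 20.61 to 21.04 at 24 h in Caki-1, against 15.31 to 15.75 and 15.40 to 15.70 in 769-P. For 3 endothelial markers the sums were 15.77 to 16.25 and 17.12 to 17.74 in Caki-1 and 16.11 to 16.54 over both groups of 769-P. The part of these markers in the results was not tested. Over the same hours the 29 mitosis genes measured went from a median change of -0.11 at 12 h in each line to -2.34 in Caki-1 and -3.02 in 769-P at 24 h, where all 29 fell in limma. The part of that decline in the late rise was not tested.

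A treated array stood apart for these genes. Replicate 1 of Caki-1 at 12 h was the lowest of its group for 113 of the 131 genes (86.3%), against 41.9% of all genes tested, and its median deviation from the group mean was -0.15. In 769-P, replicate 1 was the lowest for 79 late risers under DMSO (60.3%, against 32.1% of all genes tested) and 87 at 6 h (66.4%, against 34.3%). It was the lowest for 93 at 12 h (71%, against 38.3%) and for 49 at 24 h (37.4%, against 25.4%). Counts at 12 h are given with and without the first of these arrays, and so are the genes described here whose call it changes.

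**Figure D1:**
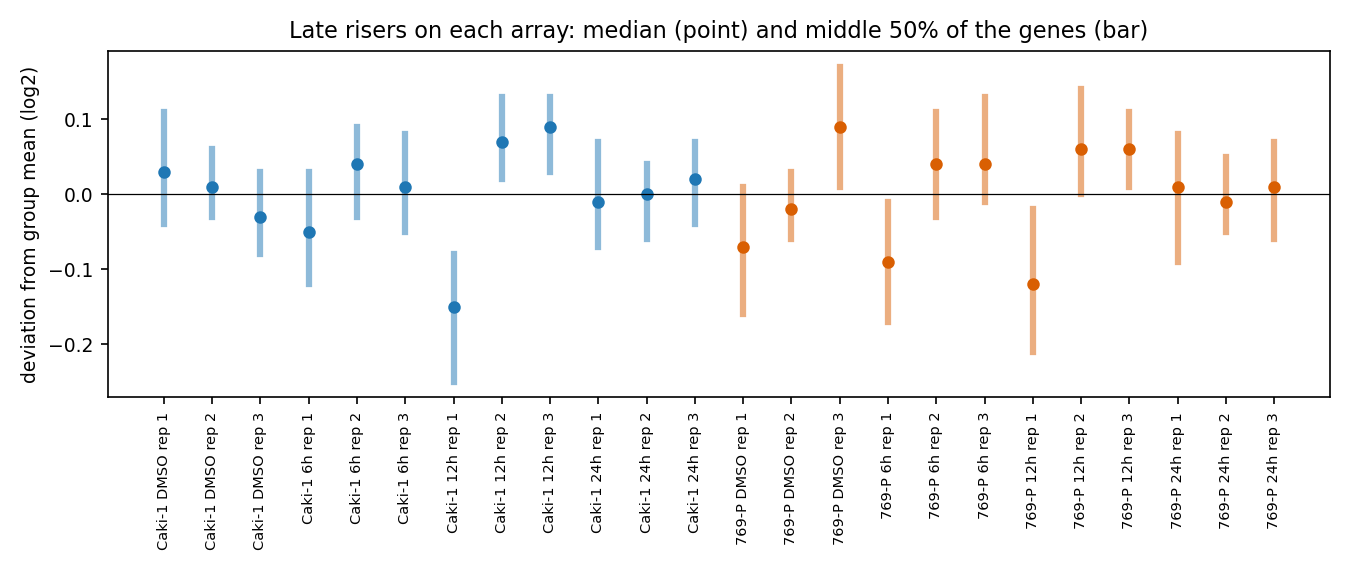
Deviation of each array from the mean of its group (log2, vertical axis) over the 131 late risers, 1 position per array, with the point at the median and the bar over the middle 50% of the genes. Replicate 1 of Caki-1 at 12 h has the lowest median, -0.15, followed by replicate 1 of 769-P at 12 h, -0.12, and the 24 h arrays lie near 0.

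Promoter sequences are shown for 6 late risers, 3 of the lysosome and its nutrient sensing and 3 antiviral genes, because they hold the motifs for which those groups are known. For 113 of the 131 genes, start sites were matched to RefSeq (GRCh38.p14), and the 250 bases before each start were searched on both strands. The long E-box TCACGTGA, the letters known from promoters of lysosomal genes, was in 5 of 157 such windows of late risers (3.18%), belonging to CTSA, GAA, NPY1R, TCEAL8 and TSC2, and in 0.854% of all 35116 windows. The 120 bases before the start are printed 5' to 3' in the direction of the gene, with each TCACGTGA in capitals. GAA lies at chr17:80101461-80101580 on the plus strand, CTSA at chr20:45891215-45891334 on the plus strand and TSC2 at chr16:2047865-2047984 on the plus strand.
GAA: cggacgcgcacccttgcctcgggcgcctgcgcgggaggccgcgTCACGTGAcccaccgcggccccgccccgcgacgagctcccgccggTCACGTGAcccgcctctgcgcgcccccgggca
CTSA: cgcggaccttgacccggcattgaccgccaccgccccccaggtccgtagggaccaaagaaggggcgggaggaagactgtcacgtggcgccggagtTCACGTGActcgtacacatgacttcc
TSC2: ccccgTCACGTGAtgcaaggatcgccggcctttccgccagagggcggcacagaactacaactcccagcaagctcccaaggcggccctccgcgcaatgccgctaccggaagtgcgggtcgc
GAA held 2 copies in this stretch and the others 1 each. TSC2 has 2 annotated start sites, of which 1 is shown.

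The interferon response motif, TTTC followed after any 2 bases by a further TTTC, was in 8 of the 157 windows (5.1%) and in 3.02% of all windows. The 8 were those of IFITM1, IFITM3, MAPK10, MVP, NEO1, SHFL, SIN3B and ZNF160. On the opposite strand it reads as a pair of GAAA with 2 bases between them. The capitals in these stretches mark the motif on the strand of the gene. IFITM1 lies at chr11:313920-314039 on the plus strand, IFITM3 at chr11:320861-320980 on the minus strand and SHFL at chr19:10086197-10086316 on the plus strand.
IFITM1: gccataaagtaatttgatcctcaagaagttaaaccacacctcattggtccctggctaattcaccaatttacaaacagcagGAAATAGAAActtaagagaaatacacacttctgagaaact
IFITM3: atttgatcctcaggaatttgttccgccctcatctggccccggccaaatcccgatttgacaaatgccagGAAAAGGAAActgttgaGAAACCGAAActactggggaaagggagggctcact
SHFL: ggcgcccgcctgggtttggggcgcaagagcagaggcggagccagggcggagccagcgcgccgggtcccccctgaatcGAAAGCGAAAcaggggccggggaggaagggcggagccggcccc
IFITM3 held 2 copies. Other motifs were searched in the same way. The core E-box CACGTG, which the long form contains, was in 17 windows (10.8% against 6.34%), GTTGCCA, a part of the site of ciliary RFX factors, in 9 (5.73% against 3.49%), CCAAT in 53 (33.8% against 32%) and the forkhead motif TGTTTAC in 2 (1.27% against 2.98%). The windows with GTTGCCA belonged to CDS1, IGBP1, MAPK10, SGSM2, SLC39A11, TRAK1, TRAPPC6A and VPS9D1. None of these is among the late risers grouped below under the cilium. A match is a description of letters and not of a bound site, and no test was made of the shares of windows.

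The rise spread over the whole day in both lines. In Caki-1 the median change of the 131 genes against DMSO was 0.19 at 6 h, 0.64 at 12 h and 1.05 at 24 h, where single genes ranged from 0.80 to 2.90. In 769-P it was 0.25, 0.61 and 1.12, with a range from 0.80 to 3.22 at 24 h. The medians of all genes tested stayed between 0.009 and 0.079. The samples are bulk RNA, so more cells with a transcript and more RNA per cell cannot be told apart. The 6 h and 24 h values chose the genes and are given without a test. The 12 h arrays were not used in the choice, although the DMSO arrays they are compared with were.

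At 12 h, 126 of the 131 genes rose in Caki-1 (96.2%) and 114 rose in 769-P (87%), with an adjusted p under 0.05 over all genes in limma. The background was 24.1% of all genes in Caki-1 and 24.9% in 769-P, or 29.2% and 30.2% among genes with a 24 h mean of at least 7 in both lines. Rises were called in both lines for 111 late risers, and for 1818 of all 11908 genes tested in both lines. They were called in Caki-1 alone for 15 late risers and in 769-P alone for 3. GOLGA8A and STK32B were called in neither line, and no late riser fell, where 24.4% and 22.6% of all genes did. Every 12 h array lay above every DMSO array for 124 genes in Caki-1 and 109 in 769-P, against 30.2% and 28.3% of all genes.

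The 6 h arrays helped to choose the genes, since a small change at 6 h was required, so the comparison of 12 h with 6 h is not independent of the choice and its counts are a description. In it 112 late risers were called higher in Caki-1 (85.5%, background 12.5%) and 73 in 769-P (55.7%, background 8.92%), 64 of them in both. The share of all genes called in both lines was not computed for this comparison. With the replicate number as a block the counts were 122 and 101. Without replicate 1 of Caki-1 at 12 h, 127 genes rose against DMSO and 121 against 6 h in that line, and the median change against DMSO was 0.73. Without replicate 1 of 769-P at 12 h, the counts in that line were 117 and 93.

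**Figure D2:**
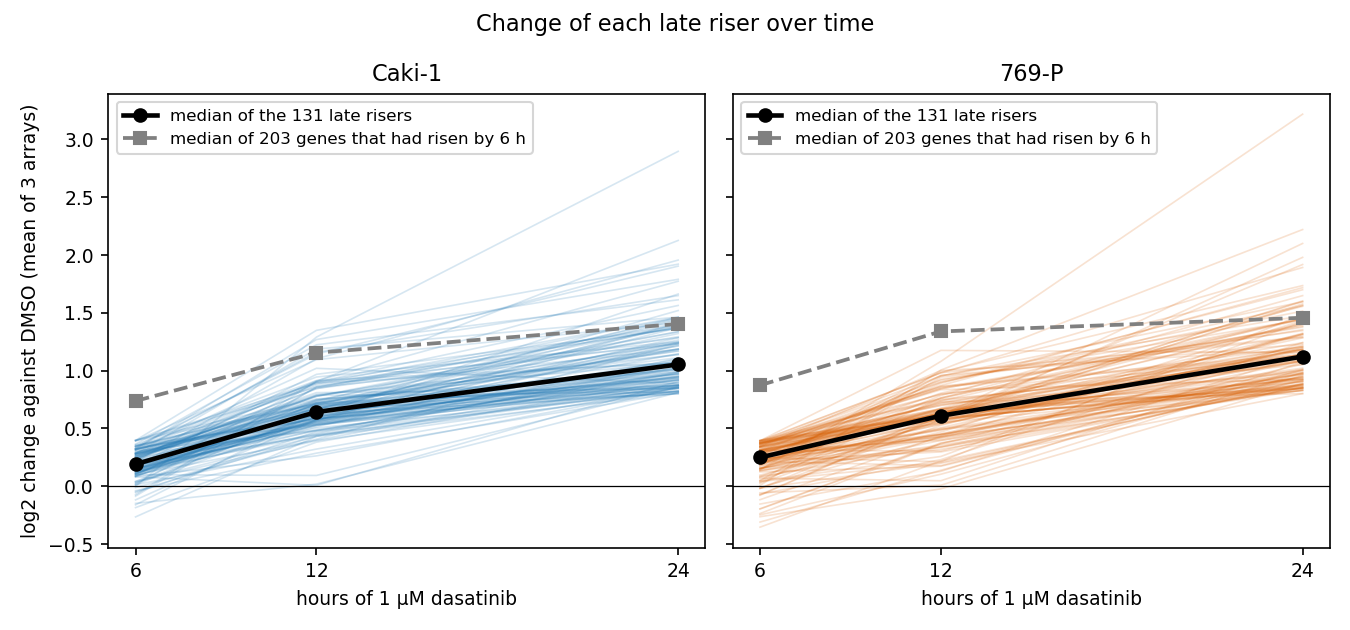
Log2 change against DMSO (mean of 3 arrays, vertical axis) over hours of 1 µM dasatinib (horizontal axis) for each of the 131 late risers (thin lines), with their median (black) and the median of 203 genes that had risen by 6 h (grey, dashed). The black line climbs from 0.19 to 1.05 in Caki-1 and from 0.25 to 1.12 in 769-P, while the grey line gains most of its height by 12 h. The sets of genes were separated by their 6 h change, which by itself parts the lines early.

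At 12 h a late riser had covered a median of 59.9% of its 24 h change in Caki-1 and 51.55% in 769-P. Genes that met the same 24 h criteria with a 6 h rise of at least 0.4 in both lines, 203 in number, had covered 80.8% and 85.5%. Their median change was already 0.74 and 0.87 at 6 h. Both sets were defined by their 6 h change, so this contrast follows in large part from the choice of genes and is a description. In 3 late risers in Caki-1 and 14 in 769-P less than 0.25 of the 24 h change was present at 12 h. The opposite case was rare. BBS9 in Caki-1 (1.02 at 12 h, 0.89 at 24 h) and MAGED1 in 769-P (1.18 and 1.16) had a 12 h mean at least as high as the 24 h mean.

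The 24 h criterion left genes close on either side of it. Just inside were UBAP1 (smaller 24 h change of the lines 0.80006), CAMLG (0.80056) and GPR160 (0.80143), and just outside ZNF251 (0.79931), YIPF3 and MICAL1 (0.79302 each). At the 6 h limit MAN2B2 (0.398), DNAL4 (0.398) and HES1 (0.397) were inside and ZSWIM8 (0.403), AHCYL2 (0.404) and CREG1 (0.406) outside. In what follows the genes are grouped by role. The roles were assigned from general knowledge after the values were seen and describe the genes without testing them. Counts called at 12 h within a role are to be read beside the shares of all 131 genes, 96.2% in Caki-1 and 87% in 769-P. Whether any role stands apart was not tested.

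Complement and immune genes numbered 8, of which all rose at 12 h in Caki-1 and 6 in 769-P, and they included the largest 24 h change of each line. CFI, the plasma protease that inactivates complement C3b and C4b (chromosome 4, 109730982 to 109801999), read 5.27, 5.44 and 5.40 under DMSO in Caki-1 and 5.13, 5.50 and 5.47 at 6 h. It then read 5.64, 7.09 and 7.25 at 12 h and 7.95, 8.37 and 8.48 at 24 h, a 7.45-fold level against DMSO. All 12 h and 24 h arrays were above all earlier ones, and replicate 1 at 12 h was far behind the others.

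In 769-P the same gene differed widely between replicates. CFI read 5.31, 6.49 and 7.16 under DMSO, 6.57, 7.55 and 8.08 at 12 h and 9.14, 9.63 and 9.85 at 24 h, where the level was 9.31-fold above DMSO. The 12 h arrays overlapped with DMSO while each lay above the DMSO array of its own number. The 12 h rise was called in Caki-1 (1.29 ± 0.30 SE, adjusted p = 0.0023) and not in 769-P (1.08 ± 0.48, adjusted p = 0.0783). For 12 h against 6 h the change of CFI in 769-P was 0.94, a description, since the 6 h arrays helped to choose the genes. Without replicate 1 of 769-P under DMSO its change against DMSO was 0.58 (adjusted p = 0.363), and without replicate 3 under DMSO or replicate 1 at 12 h it was 1.497 and 1.493 and called (0.021 and 0.0244).

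IFITM1 and IFITM3, membrane proteins that hinder the entry of viruses, are neighbours on chromosome 11 (314040 to 315272 and 319676 to 320860). Their probe sets may cross-read related family members, so the split between them is uncertain. IFITM1 read 7.039, 6.672 and 7.004 under DMSO, 7.68, 8.38 and 8.47 at 12 h and 8.27, 8.94 and 8.87 at 24 h in Caki-1. In 769-P it read 5.92, 6.78 and 6.58, then 7.06, 7.67 and 7.57, then 8.49, 8.60 and 8.85. The groups did not overlap between DMSO and 12 h in either line. IFITM1 rose at 12 h by 1.27 ± 0.20 and 1.00 ± 0.21 (adjusted p = 8.6e-05 and 7.9e-04), and IFITM3 rose by 0.51 ± 0.08 and 0.49 ± 0.11 (9.5e-05 and 0.0017).

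SHFL, an antiviral protein that blocks ribosomal frameshifting, had 6 h changes of -0.09 in Caki-1 and 0.18 in 769-P. It rose at 12 h by 0.86 ± 0.12 and 0.34 ± 0.10, the latter not called without replicate 2 of 769-P under DMSO (adjusted p = 0.0656) or replicate 3 at 12 h (0.0669). C1RL, a serine protease related to complement C1r, rose at 12 h by 1.35 ± 0.10 in Caki-1 and 0.79 ± 0.13 in 769-P, and at 24 h lay 1.92 and 1.65 above DMSO. HLA-E, a class I molecule read by natural killer cells, rose by 0.72 ± 0.05 and 0.59 ± 0.09, and TRADD, the adaptor of the TNF receptor, by 0.58 ± 0.09 and 0.59 ± 0.09. HLA-E is read by a probe set that may also take up related class I transcripts. CLEC4E, a lectin receptor known from myeloid cells, read 11.69, 11.43 and 11.40 under DMSO in Caki-1 and rose there by 0.81 ± 0.08, a call lost in a fit over all 24 arrays (adjusted p = 0.0692). In 769-P it read 9.19, 7.91 and 7.89 under DMSO and 10.52, 8.86 and 9.03 at 24 h, and was the only late riser whose 24 h arrays overlapped with DMSO. The high value belonged to replicate 1 in every group, and its 12 h change of 0.63 ± 0.45 was not called (adjusted p = 0.279). With the replicate block it was called (2.0e-04). For the other 130 genes, as for 35.9% of all genes in Caki-1 and 33.9% of those in 769-P, the 24 h arrays lay fully above DMSO in each line. The rule required a 24 h mean at least 0.8 above DMSO, so this separation follows largely from the choice of genes.

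Of interferon-stimulated genes outside the 131, 19 of 31 tested rose and 1 fell at 24 h in Caki-1, and 17 of 29 rose and 2 fell in 769-P, with medians of 0.32 and 0.38. At 24 h 32.9% of all genes rose and 29.9% fell in Caki-1, and 31.1% rose and 24.6% fell in 769-P. These comparisons use the DMSO arrays that also chose the late risers. IRF9, the DNA-binding subunit of the interferon-activated complex ISGF3, had risen by 0.94 ± 0.11 at 6 h in Caki-1 and 0.75 ± 0.11 in 769-P. It was named after its values were seen. Of 20 class I presentation genes besides HLA-E, 14 were higher and 3 lower at 24 h in Caki-1, while 4 were higher and 5 lower in 769-P.

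**Figure D3:**
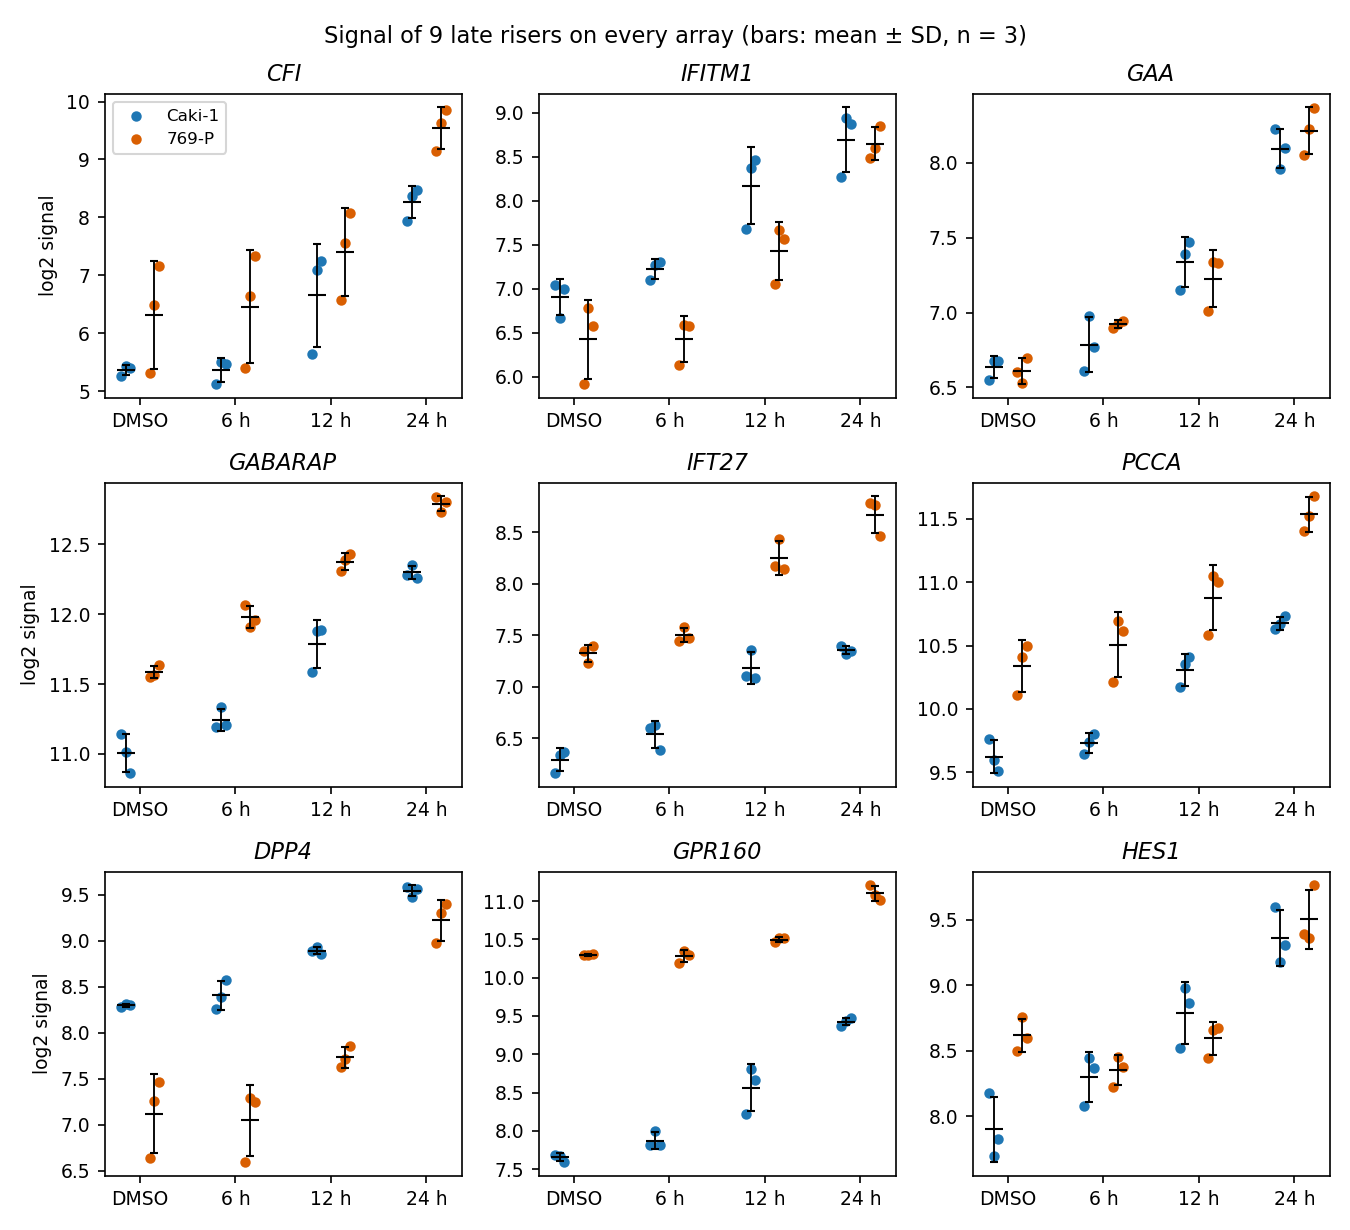
Log2 signal (vertical axis) of 9 late risers on each of the 24 arrays, by treatment (horizontal axis), with Caki-1 in blue and 769-P in orange, and with mean ± SD of 3 arrays as bars. By the choice of genes, the 6 h arrays lie near DMSO and the 24 h arrays above it in every panel. The 12 h means of IFITM1 are 8.17 and 7.43, between DMSO and 24 h.

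The lysosomal genes rose in all cases at 12 h. All 10 late risers of this role were called in both lines, with median 12 h changes of 0.66 and 0.65 and median 24 h changes of 1.03 in Caki-1 and 1.15 in 769-P. GAA, the acid glucosidase that clears glycogen from lysosomes (chromosome 17, 80101581 to 80119881), read 6.55, 6.67 and 6.68 under DMSO in Caki-1, then 7.15, 7.39 and 7.47 at 12 h and 8.22, 7.96 and 8.10 at 24 h. The 769-P arrays read 6.61, 6.53 and 6.70, then 7.01, 7.34 and 7.33, then 8.05, 8.23 and 8.36. The groups were separated in both lines. GAA rose at 12 h by 0.70 ± 0.12 and 0.62 ± 0.11, which was 48.0% and 38.4% of its 24 h change.

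CTSA, the cathepsin that shields the lysosomal galactosidase, and GLB1, that galactosidase, both rose. CTSA rose at 12 h by 0.78 ± 0.07 in Caki-1 and 0.42 ± 0.09 in 769-P, and GLB1 by 0.53 ± 0.06 and 0.74 ± 0.08. HEXA, a subunit of the hexosaminidase that degrades gangliosides, rose by 0.61 ± 0.07 and 0.75 ± 0.07. ASAH1, the acid ceramidase, rose by 0.78 ± 0.08 and 0.81 ± 0.08, and the membrane protein GLMP by 0.79 ± 0.07 and 0.80 ± 0.07. Their 24 h changes lay between 0.88 and 1.45. The other lysosomal late risers were CPQ, DRAM1, MAN2B2 and SIAE. The call of SIAE in Caki-1 (0.40) was lost without replicate 2 or 3 of Caki-1 under DMSO or at 12 h, with changes of 0.30 to 0.39.

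Other lysosomal genes went the same way. Outside the 131, 26 of 30 tested rose and 1 fell at 24 h in Caki-1, and 24 of 28 rose and none fell in 769-P, with medians of 0.59 and 0.53. At 12 h 21 of 30 and 22 of 28 had risen. CTSD, the main aspartic protease of lysosomes, changed by -0.02 ± 0.11 and 0.14 ± 0.07 at 6 h and rose by 0.76 ± 0.11 and 0.99 ± 0.07 at 24 h, just short of the limit of 0.8 in Caki-1. It was named after its values were seen.

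Autophagy and nutrient sensing contributed 6 genes, all called at 12 h in both lines. GABARAP, a ubiquitin-like protein that coats autophagosomes, read 11.14, 11.01 and 10.86 under DMSO in Caki-1, 11.59, 11.88 and 11.89 at 12 h and 12.28, 12.36 and 12.26 at 24 h. In 769-P the gene read 11.55, 11.56 and 11.63, then 12.31, 12.39 and 12.43, then 12.84, 12.73 and 12.80. DMSO, 12 h and 24 h were fully separated, and the 12 h rises were 0.78 ± 0.08 and 0.79 ± 0.06. Another bright probe set of GABARAP lay 1.30 above DMSO in Caki-1 and 1.32 in 769-P at 24 h. Dimmer ones changed by 0.24 and 0.49 in Caki-1 and by -0.40 and 0.14 in 769-P, so its bright and dim probe sets disagreed.

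TP53INP2, which binds such proteins and promotes autophagosome formation, rose at 12 h by 0.90 ± 0.10 and 0.96 ± 0.12 and lay 1.56 and 1.48 above DMSO at 24 h. Further genes act on mTORC1 or sense energy. TSC2, which holds the activator of mTORC1 in check, rose at 12 h by 0.54 ± 0.11 and 0.59 ± 0.12, and RRAGC, a GTPase that brings mTORC1 to the lysosome, by 0.58 ± 0.07 and 0.65 ± 0.08. PRKAB1, a subunit of AMP-activated kinase, rose by 0.74 ± 0.09 and 0.34 ± 0.08, and WDR59, of a complex that relays amino acids to mTORC1, also rose in both lines. Outside the 131, 18 of 28 autophagy genes rose and 1 fell at 24 h in Caki-1, and 19 of 28 rose and none fell in 769-P.

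7 late risers belong to the cilium and axoneme, and all were called at 12 h in both lines. IFT27, a small GTPase of the intraflagellar transport train, read 6.17, 6.34 and 6.37 under DMSO in Caki-1, then 7.10, 7.36 and 7.09 at 12 h and 7.40, 7.32 and 7.35 at 24 h. In 769-P it read 7.35, 7.23 and 7.39, then 8.17, 8.44 and 8.14, then 8.79, 8.76 and 8.46. The 12 h arrays cleared the DMSO arrays in both lines, and the rises were 0.89 ± 0.10 and 0.93 ± 0.11. IFT43, of the returning train, rose by 0.70 ± 0.08 and 0.73 ± 0.08.

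BBS9, a subunit of the BBSome that carries membrane proteins out of cilia, rose at 12 h by 1.02 ± 0.11 and 0.94 ± 0.12. TCTN1, of the gate at the ciliary base, rose by 0.55 ± 0.10 and 0.53 ± 0.10. The role was completed by AGBL5, which trims glutamates from tubulin, the dynein light chain DNAL4 and TOGARAM1. Across the other ciliary genes tested, 18 of 36 rose and 4 fell at 24 h in Caki-1, with a median of 0.25, and 30 of 36 rose and none fell in 769-P, with a median of 0.59. Whether the lines differ in this was not tested.

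**Figure D4:**
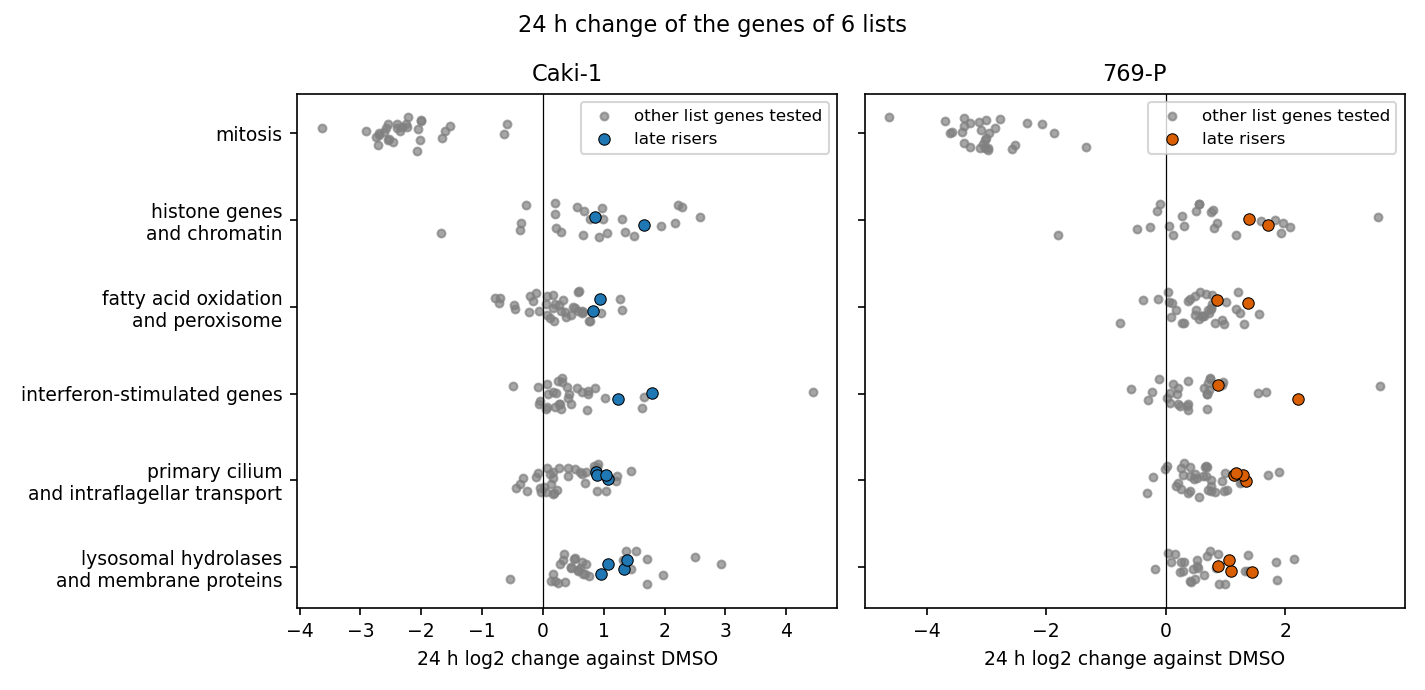
Log2 change against DMSO at 24 h (horizontal axis) of the genes of 6 lists (vertical axis) in Caki-1 and 769-P, with late risers as large coloured points and the other genes tested in grey. Late risers lie at 0.8 or more by their definition, most other lysosomal genes lie above 0 (26 of 30 rose in Caki-1, 24 of 28 in 769-P), and all 29 mitosis genes lie below 0.

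Mitochondrial and peroxisomal enzymes numbered 10, of which 9 rose at 12 h in Caki-1 and 10 in 769-P. PCCA, a subunit of propionyl-CoA carboxylase, read 9.76, 9.60 and 9.51 under DMSO in Caki-1, 10.17, 10.35 and 10.41 at 12 h and 10.63, 10.67 and 10.73 at 24 h. Its 769-P signals were 10.11, 10.41 and 10.50, then 10.583, 11.052 and 10.998, then 11.41, 11.52 and 11.68. The groups were separated at each of these times. PCCA rose at 12 h by 0.69 ± 0.08 and 0.54 ± 0.14.

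PHYH, the peroxisomal enzyme that starts the breakdown of phytanic acid, rose by 0.70 ± 0.10 and 0.84 ± 0.11. ECI1, which prepares unsaturated fatty acids for oxidation, rose by 0.67 ± 0.12 and 0.66 ± 0.06, and SIRT3, a mitochondrial deacetylase, by 0.44 ± 0.07 and 0.67 ± 0.11. Another probe set of SIRT3 changed less, by 0.12 and 0.18 at 12 h and by 0.32 and 0.23 at 24 h. Of the other fatty acid oxidation and peroxisome genes tested, 19 of 37 rose and 5 fell at 24 h in Caki-1, and 28 of 36 rose and 2 fell in 769-P. For amino acid catabolism the counts were 16 of 29 with 7 falling and 22 of 31 with 3 falling.

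The 9 cytosolic enzymes were called at 12 h in both lines without exception. ALDH3B1, which oxidises lipid aldehydes, rose by 1.16 ± 0.12 and 1.00 ± 0.11. NMRK1, a kinase of nicotinamide riboside in NAD synthesis, rose by 0.97 ± 0.13 and 0.87 ± 0.08. CA2, the cytosolic carbonic anhydrase, rose by 0.72 ± 0.05 and 0.76 ± 0.09. The others were BDH2, CRYL1, DHRS1, MPI, PTGR1 and VAT1. The call of MPI in 769-P (0.40) was lost without replicate 3 of 769-P under DMSO (adjusted p = 0.0675) or replicate 2 at 12 h (0.09).

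Of 11 genes of the epithelial surface, adhesion and transport, 10 rose at 12 h in each line. DPP4, a brush border peptidase (chromosome 2, 161992245 to 162074215), read 8.28, 8.31 and 8.30 under DMSO in Caki-1, 8.89, 8.93 and 8.86 at 12 h and 9.59, 9.48 and 9.57 at 24 h. In 769-P it read 6.64, 7.26 and 7.46, then 7.63, 7.71 and 7.86, then 8.97, 9.30 and 9.40. It rose at 12 h by 0.60 ± 0.08 and 0.61 ± 0.20, and at 24 h was 2.37-fold and 4.29-fold above DMSO. The 12 h call in 769-P was lost without replicate 1 of 769-P under DMSO (0.37, adjusted p = 0.122) or replicate 3 at 12 h (0.55, adjusted p = 0.0713).

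JUP, or plakoglobin, which joins cadherins to the cytoskeleton, rose at 12 h by 1.22 ± 0.09 in Caki-1 and 0.60 ± 0.12 in 769-P and reached 1.61 and 1.58 at 24 h. ABCC3, an exporter of bile salts and conjugates, read 9.28, 9.37 and 9.68 under DMSO in 769-P and 9.16, 9.81 and 10.06 at 12 h, where replicate 1 stayed with DMSO. Its 12 h change was 0.91 ± 0.22 in Caki-1 (adjusted p = 0.00301) and 0.23 ± 0.19 in 769-P (adjusted p = 0.36). Without replicate 1 of 769-P at 12 h the latter was 0.49 with an adjusted p of 0.02. A dimmer probe set of ABCC3 was 0.75 higher at 24 h in Caki-1 and -0.15 in 769-P. SLC26A11, an anion transporter, rose at 12 h by 0.62 ± 0.07 and 0.60 ± 0.16 and at 24 h lay 1.05 and 1.92 above DMSO.

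9 receptors and guidance molecules included ACVR1B, a receptor of activin, which rose at 12 h by 0.70 ± 0.07 and 0.43 ± 0.10. Its probe sets disagreed in 769-P, where the 4 others of ACVR1B changed by -0.10 to 0.08 at 12 h, and with all averaged the change was 0.06 (adjusted p = 0.568). GPRC5B, an orphan receptor, rose by 1.19 ± 0.10 and 0.96 ± 0.08. NEO1, PLXNA3, PLXNB1, PTPRS and RELN act in axon guidance or cell migration. Of the 9, all rose at 12 h in Caki-1 and 7 in 769-P. Single arrays decided the calls of RELN in both lines, at 0.40 to 0.57 in Caki-1 and 0.39 to 0.57 in 769-P where the call was lost. They also decided those of NEO1 and PLXNB1 in 769-P, which were lost without replicate 1 of 769-P under DMSO (adjusted p = 0.0635 and 0.0604) and without replicate 3 (NEO1, 0.0597) or 2 (PLXNB1, 0.0836) at 12 h.

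Of 12 genes of transcription, chromatin and signalling, 10 rose at 12 h in Caki-1 and 8 in 769-P. GDF15, a secreted stress factor of the TGF-beta family, rose by 0.58 ± 0.12 and 0.99 ± 0.12 and lay 1.37 and 1.74 above DMSO at 24 h. The histone genes H2AC8 and H2BC12 may be read together with near-identical copies. H2AC8 rose by 0.62 ± 0.14 and 0.66 ± 0.16, and H2BC12 changed by 0.26 ± 0.18 in Caki-1 (adjusted p = 0.26) and rose by 0.87 ± 0.11 in 769-P. Without replicate 1 of Caki-1 at 12 h the former was 0.50 and called (adjusted p = 0.0136), and it was called with the replicate block (0.0193). The block assumes pairs of arrays. In Caki-1 the deviations of 12 h and DMSO arrays of the same number correlated over all genes tested at 0.17, 0.09 and -0.03. Of the other histone and chromatin genes tested, 19 of 24 rose and 4 fell at 24 h in Caki-1, and 15 of 23 rose and 3 fell in 769-P.

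The 10 genes of the endoplasmic reticulum and Golgi rose at 12 h in 9 cases in Caki-1 and 8 in 769-P. OS9, a lectin that sends misfolded proteins to degradation, rose by 0.71 ± 0.09 and 0.58 ± 0.07, and DNAJB9, a co-chaperone of the endoplasmic reticulum, by 0.57 ± 0.14 and 0.40 ± 0.12. The DNAJB9 call in 769-P was lost without replicate 1 of 769-P under DMSO (0.25, adjusted p = 0.0682) or replicate 3 at 12 h (0.34, 0.0561). GLT8D1, a glycosyltransferase, had nearly reached its 24 h change by 12 h, with 0.79 ± 0.08 of 0.81 in Caki-1 and 0.73 ± 0.07 of 0.80 in 769-P. These genes, and those of the next role, were named after their values were seen.

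Membrane traffic, small GTPases and actin gave 10 genes, all called at 12 h in both lines. The call of TBC1D9 in 769-P (0.258 ± 0.102) was close to the threshold. It was lost with array medians centred (adjusted p = 0.0757), without the filter (0.0673) and without the intensity trend (0.0534). Averaging its probe sets (0.103, adjusted p = 0.407) or leaving out most single arrays of 769-P, among them each at 6 h and 24 h, also removed it. GSN, or gelsolin, which severs actin filaments, rose by 0.88 ± 0.10 and 0.83 ± 0.09, and DNM1, a dynamin that cuts vesicles from the membrane, by 0.41 ± 0.10 and 0.61 ± 0.10. AP2A2, a subunit of the adaptor of clathrin-coated pits, rose by 0.56 ± 0.09 and 0.55 ± 0.10. The remaining 29 genes of the 131 had no role in common, and 29 of them rose at 12 h in Caki-1 and 23 in 769-P.

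A few genes moved mostly after 12 h, STK32B and GOLGA8A in both lines and CDS1, RNF207 and PCED1A in 769-P. STK32B, a little studied kinase, read 6.93, 6.84 and 6.84 under DMSO in Caki-1, 7.01, 6.75 and 6.88 at 12 h and 7.92, 7.85 and 7.56 at 24 h. Those of 769-P read 6.59, 6.45 and 6.53, then 6.81, 6.42 and 6.96, then 8.70, 7.48 and 7.84. The 12 h arrays overlapped with DMSO in both lines and every 24 h array was above them. Its 12 h changes were 0.01 ± 0.10 and 0.21 ± 0.23.

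GOLGA8A, a Golgi protein with many near-identical copies, changed by 0.02 ± 0.12 and 0.05 ± 0.15 at 12 h and lay 0.81 and 1.07 above DMSO at 24 h. CDS1, which makes CDP-diacylglycerol for phosphoinositide synthesis, rose at 12 h by 0.43 ± 0.15 in Caki-1 and changed by 0.01 ± 0.12 in 769-P. RNF207 and PCED1A followed that pattern, with 0.38 ± 0.15 and 0.53 ± 0.10 called in Caki-1 and 0.10 ± 0.13 and 0.21 ± 0.11 not called in 769-P. The Caki-1 calls of CDS1 and RNF207 were close to the threshold. That of CDS1 was lost without replicate 1 or 3 of Caki-1 under DMSO or at 12 h (0.38 to 0.42). That of RNF207 was lost without any 1 of the DMSO arrays, without replicate 2 or 3 at 12 h and without replicate 2 at 6 h or 24 h. It was also lost after quantile normalisation, with array medians centred, without the filter and with its probe sets averaged (0.12). PCED1A in 769-P was called without replicate 1 at 12 h (0.29, adjusted p = 0.0437).

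The lines were compared at 12 h by testing the difference between their changes. Of the 131 genes, 19 differed (14.5%), which is below the share of all genes that differed, 18.9%. Of these, 17 had the larger change in Caki-1 (13% of the 131, background 8.68%) and 2 in 769-P (1.53%, background 10.3%). The count ranged from 10 to 21 when single arrays were left out. It was 10 without replicate 3 of Caki-1 under DMSO or at 12 h, 11 without replicate 2 of Caki-1 under DMSO, and 12 without replicate 2 of Caki-1 or replicate 1 of 769-P at 12 h. The split by direction moved as well. Without replicate 1 of 769-P at 12 h, 9 genes had the larger change in Caki-1 and 3 in 769-P. Without replicate 3 of Caki-1 at 12 h these counts were 7 and 3. They were 13 and 5 with probe sets averaged and 19 and 6 with the replicate block. Across the 131 genes, the 12 h changes of the lines correlated at 0.29 (Pearson) and 0.22 (Spearman), and 75 genes had the larger change in Caki-1. Genes are not independent replicates, and within each line the changes share their DMSO arrays.

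HES1, a repressor induced by Notch, differed most. It read 8.18, 7.69 and 7.83 under DMSO and 8.52, 8.98 and 8.87 at 12 h in Caki-1, where it rose by 0.89 ± 0.15. In 769-P it read 8.50, 8.76 and 8.60 under DMSO and 8.45, 8.66 and 8.68 at 12 h, a change of -0.02 ± 0.11. The 12 h arrays lay above DMSO in Caki-1 and overlapped with DMSO in 769-P. The difference between the changes was 0.91 ± 0.20 (adjusted p = 0.00179). At 24 h HES1 lay 1.46 and 0.89 above DMSO. Another probe set of HES1 changed by 0.64 in Caki-1 and -0.18 in 769-P at 12 h. At 24 h that probe set lay 1.05 and 0.39 above DMSO, so the late rise in 769-P was smaller there.

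GPR160, an orphan receptor, read 7.69, 7.68 and 7.60 under DMSO and 8.22, 8.80 and 8.67 at 12 h in Caki-1. In 769-P it read 10.29, 10.29 and 10.31, then 10.46, 10.52 and 10.52. It rose in both lines, in 769-P by 0.20 with the call lost without replicate 2 under DMSO or replicate 2 or 3 at 12 h (adjusted p = 0.0567 to 0.0609) and in a fit over all 24 arrays (0.102). The difference between the changes was 0.71 ± 0.14 (adjusted p = 5.9e-04). The difference was 0.78 ± 0.26 for ANKRD29 (adjusted p = 0.0349), 0.66 ± 0.14 for OBSL1 (9.8e-04), an adaptor of the cytoskeleton, and 0.63 ± 0.16 for JUP (0.00595).

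SLC25A16, a mitochondrial carrier, and PDZK1IP1, a small membrane protein of the proximal tubule, went the other way. SLC25A16 read 7.49, 7.46 and 7.45 under DMSO in Caki-1 and 7.58, 7.55 and 7.55 at 12 h, and in 769-P 7.99, 7.55 and 7.54, then 8.32, 8.43 and 8.43. The 12 h step was thus small in Caki-1 and large in 769-P, with a difference of -0.61 ± 0.15 (adjusted p = 0.00598). For PDZK1IP1 the difference was -0.58 ± 0.20 (adjusted p = 0.0392). PDZK1IP1 read 11.78, 12.37 and 12.40 at 12 h in Caki-1, where it changed by 0.32 (adjusted p = 0.0753), or by 0.52 without the first of these arrays (7.4e-04). Its difference between the lines was no longer called when that array was left out. With that array left out 21 genes differed, 18 of them among the 19.

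**Figure D5:**
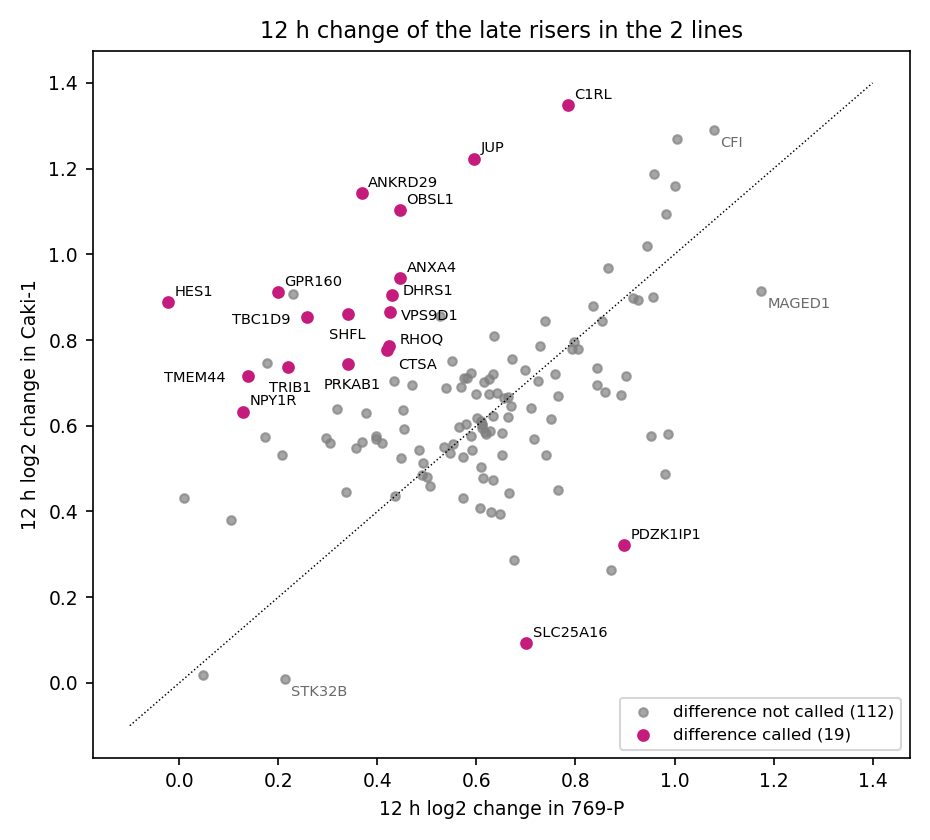
Log2 change against DMSO at 12 h in 769-P (horizontal axis) and in Caki-1 (vertical axis) for the 131 late risers, with the 19 genes whose changes differed between the lines in colour and equal changes on the dotted line. HES1, at -0.02 and 0.89, is far above the line and SLC25A16, at 0.70 and 0.09, far below it.

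Before treatment, the lines already differed in most of these genes. Under DMSO 103 of the 131 differed (78.6%), against 58.7% of all genes and 66.8% of genes with a 24 h mean of at least 7 in both lines. Of the 103, 37 were higher in Caki-1 (28.2% of the 131, background 28.8%) and 66 in 769-P (50.4%, background 29.9%). Higher in Caki-1 were CLEC4E by 3.18 ± 0.36 (adjusted p = 4.2e-08), SLC26A11 by 1.92 ± 0.13 (2.0e-12), HLA-E by 1.79 ± 0.07 and GLMP by 1.78 ± 0.07. In 769-P the higher genes included GPR160 (Caki-1 minus 769-P -2.65 ± 0.10, adjusted p = 2.7e-17), NMRK1 (-1.88 ± 0.11), TRIB1 (-1.80 ± 0.12) and ECI1 (-1.75 ± 0.10). TRIB1, a pseudokinase that guides ubiquitin ligases, rose at 12 h in Caki-1 by 0.74 ± 0.11 and changed by 0.22 ± 0.12 in 769-P, a change called with the replicate block (adjusted p = 0.0223) and without replicate 1 of 769-P under DMSO (0.34, adjusted p = 0.0259). GLMP and NMRK1 also started from different levels, and their changes at 12 h were not called different between the lines (adjusted p = 0.987 and 0.72), with a difference of 0.10 ± 0.16 for NMRK1.

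All values above come from the brightest probe set of a gene, and others were at hand for 108 of the 131. Of all 262 other probe sets, 223 lay above DMSO at 24 h in both lines, 39 did not and 69 did so by at least 0.8, with median 24 h changes of 0.64 in each line. Among the 121 of them with a 24 h mean of at least 7 in both lines, a limit that a rise helps to pass, belonging to 61 genes, 117 lay above DMSO at 24 h in both lines and 57 by at least 0.8, with medians of 0.90 and 0.96. The 4 exceptions were 1 such probe set each of ABCC3, CHURC1, GABARAP and SIN3B, a corepressor, the last at -0.32 and -0.25. Further such probe sets changed by less than 0.4 in at least 1 line, among them those of AP2A2, CORO1B, DRAM1, HES1, PTPRS, SIRT3 and TMEM150A. With all probe sets of a gene averaged, 113 of the 127 late risers then tested rose at 12 h against DMSO in Caki-1 and 105 in 769-P. TRADD, at 0.22 in 769-P, CRYL1, at 0.15 in Caki-1, and MPI, at 0.11 and 0.06, then lost their calls. Another probe set of CFI lay 2.17 and 2.44 above DMSO at 24 h, and another of IFITM1 1.77 and 2.04.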

How the data were processed

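Expression was measured in 24 arrays of Caki-1 and 769-P, with 3 in each of 8 groups taken from the labels. The authors deposited 1 log2 value for each probe set and array. MAS5 is named, without a version, in the submitters' processing notes, so how arrays were brought to a common level is not given in the sources used here. Of 49395 probe sets, 102 were controls, 44994 named 1 gene in the given platform annotation, 1832 named several and 2569 had no entry. The brightest probe set naming only that gene stood for it, and levels of different probe sets are not compared. Array number, not depth, limits the precision.

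Within a line, genes with a mean above the 40th percentile of all probe sets entered (12420 in Caki-1, 12350 in 769-P), and in at least 1 line for tests between lines (12862). All 131 late risers passed. limma 3.58.1 in R 4.3.3 fitted group means with an intensity trend, within a line over its 12 arrays and between lines over all 24. P-values were adjusted by Benjamini-Hochberg over all genes of a comparison and called under 0.05. The scripts were tested on simulated data. The SE of a change had a median of 0.1 within Caki-1, 0.105 within 769-P and 0.151 between lines.

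The members and the 32 gene lists were chosen with earlier results of these data known. Named genes were those with the 12 largest 24 h changes, the 5 largest and 5 smallest 12 h changes, up to 5 with a line difference at 12 h and 4 under DMSO in each direction, up to 4 of each list, and 3 on each side of the 0.8 limit. Other genes were named after their values were seen. The shared replicate numbers were checked as pairs by correlating deviations from group means. For 12 h against 6 h every pair was over 0.1 (0.13 to 0.26 in Caki-1, 0.17 to 0.3 in 769-P), a pairing that comes from the data and not from the labels. For 12 h against DMSO not every pair was (from -0.03 and from 0.06), so blocked p-values of that comparison rest on a pairing not seen throughout. Alternatives were the probe set, the scaling, the filter, the trend, the block, 1 fit over all arrays and leaving out each array.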

Additional observations from a re-analysis of the deposited data

Results flagged for a closer look

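In 19 of the 131 late risers the 12 h change differed between the lines by the interaction test in limma, which is 14.5% of them against 18.9% of all genes. The differences, Caki-1 minus 769-P on the log2 scale, were 0.91 for HES1, 0.78 for ANKRD29, 0.71 for GPR160, 0.66 for OBSL1, 0.63 for JUP, 0.6 for TBC1D9, 0.58 for TMEM44, 0.56 for C1RL, 0.52 for SHFL and 0.52 for TRIB1. They were 0.5 for ANXA4, 0.5 for NPY1R, 0.48 for DHRS1, 0.44 for VPS9D1, 0.4 for PRKAB1, 0.36 for RHOQ and 0.36 for CTSA. The change was smaller in Caki-1 for SLC25A16, at -0.61, and for PDZK1IP1, at -0.58. ANXA4, DHRS1, GPR160, HES1, JUP, OBSL1, SLC25A16 and TBC1D9 were called in all 33 settings run.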

How the results depend on the processing

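The rule selected 131 genes. It selected 61 when the probe sets of a gene were averaged (50 of them among the 131), 53 with a 24 h limit of 1, 66 with a 6 h limit of 0.3, 153 after quantile normalisation (121 shared) and 118 with array medians centred (112 shared). Leaving out single arrays gave 106 to 135 genes, fewest without replicate 1 of 769-P at 6 h. With arrays left out, the late risers called higher at 12 h against DMSO numbered 119 to 127 in Caki-1 and 104 to 117 in 769-P, those against 6 h 96 to 121 and 49 to 93, those that differed between lines in the 12 h change 10 to 21, and those that differed under DMSO 100 to 105. With the replicate block 128 and 119 rose against DMSO and 25 differed between the lines at 12 h, and every gene called higher without the block was called with it. CFI at 12 h against DMSO in 769-P then had an adjusted p of 4.0e-05. Of the 262 changes at 12 h against DMSO, 44 crossed the threshold under some setting, and no called change reversed. Changes near 0 could change sign. In Caki-1 all 131 lay above 0 at 12 h, against 129 with array medians centred and 130 after quantile normalisation. The causes were not tested. With 3 arrays per group, a missed call does not show that a gene stayed level.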
